A study of Homo sapiens with 9 samples.

Results

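The 48 genes described here encode proteins of nucleotide excision repair, base excision repair, mismatch repair, end joining, lesion bypass and direct reversal of DNA damage. They were found by gene name in a count table of 58929 genes, and all 48 were present. A filter on low counts left 16065 genes to be tested, 47 of the 48 among them. The filter removed only NHEJ1, the XLF protein of end joining, which had 9 counts over all 9 libraries. A second gene model, AC068946.1, covers 99.986% of its span on the same strand and had 24 counts.

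RNA sequencing measured poly(A)-selected transcripts of FaDu cells, an established line of head and neck squamous cell carcinoma (HNSCC), labelled wild type. There were 3 groups of 3 libraries: YKL-5-124 at 250 nM, samuraciclib at 250 nM, and vehicle (DMSO). The labels name no split into batches, and whether all libraries were prepared together was not tested. The treatment protocol and the study give a treatment of 48 h, and the text of the series gives 72 h. Both compounds are inhibitors of CDK7, a kinase that activates the cell-cycle CDKs and also acts in transcription as part of TFIIH, and YKL-5-124 binds it covalently. The labels name no DNA-damaging agent in any group, the results describe 1 cell line only, and the study calls the 3 libraries of a group biological replicates.

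Cells remove damaged DNA along several routes. In nucleotide excision repair, a bulky lesion is found in the whole genome by XPC and the DDB complex, or at a stalled RNA polymerase by the products of ERCC6 and ERCC8, and TFIIH then opens the helix for incision on both sides. CDK7 belongs to a separable kinase module of TFIIH. Base excision repair starts with a glycosylase that removes 1 altered base, mismatch repair corrects replication errors, end joining closes double-strand breaks, and bypass polymerases copy past lesions that remain. Many of these genes are expressed more strongly in cells that replicate their DNA.

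Depth ranged from 18264302 to 24613892 counts with YKL-5-124, 19346587 to 22111350 with samuraciclib and 18096180 to 28018126 in DMSO. The 48 genes together took 0.485% to 0.502% of all counts with YKL-5-124, 0.508% to 0.519% with samuraciclib and 0.580% to 0.590% in DMSO, so that the groups did not overlap. In 1 library of each group (YKL-5-124 2, samuraciclib 2 and DMSO 3), RN7SL2, a 7SL RNA gene, stood at 24.9 to 59.3 CPM (a count relative to the TMM-scaled library total), against 696 to 981 CPM in the other 6. The summed level of 8 squamous and epithelial markers, KRT5 and KRT17 foremost, was 5657 to 6088 CPM with YKL-5-124, 6286 to 6592 CPM with samuraciclib and 5453 to 5776 CPM in DMSO. Single markers differed both ways. Mean KRT5 was 1855 CPM with YKL-5-124, 2332 CPM with samuraciclib and 2580 CPM in DMSO, and mean KRT17 2693, 2691 and 1778 CPM in that order. Markers of fibroblasts (6 genes, LUM at 0 in every library) summed to at most 6.12 CPM, and those of leukocytes (4 genes, PTPRC at 0 or 1 count in every library) to at most 4.09 CPM, nearly all of it from CD14. Of 3 endothelial markers, PECAM1 was near 0, and CDH5 supplied nearly all of the summed 20.0 to 32.1 CPM.

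Levels between genes were compared as TPM, a relative abundance that takes the length of the gene model into account. In DMSO the repair genes spanned more than 3 orders of magnitude. XRCC6, the Ku70 subunit of the Ku dimer that binds broken DNA ends, was the most abundant at 2164 ± 59.5 TPM (SD, n = 3), followed by APEX1, the abasic-site endonuclease, at 485 ± 6.78 TPM. UNG, which removes uracil, had 327 ± 11.6 TPM, and XRCC5, the other Ku subunit (Ku80), 323 ± 13.3 TPM. PRKDC, the catalytic subunit of DNA-dependent protein kinase, had 205 ± 7.48 TPM and PARP1, the main sensor of single-strand breaks, 147 ± 4.35 TPM. The median of the 47 tested genes was 22.1 TPM. At the low end stood NEIL1, a glycosylase for oxidized bases, at 2.14 ± 0.258 TPM and ERCC5, the XPG nuclease, at 1.73 ± 0.0974 TPM. The lowest count of a tested member in any library was 57, and 2 members had under 100 counts in some library.

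**Figure D1:**
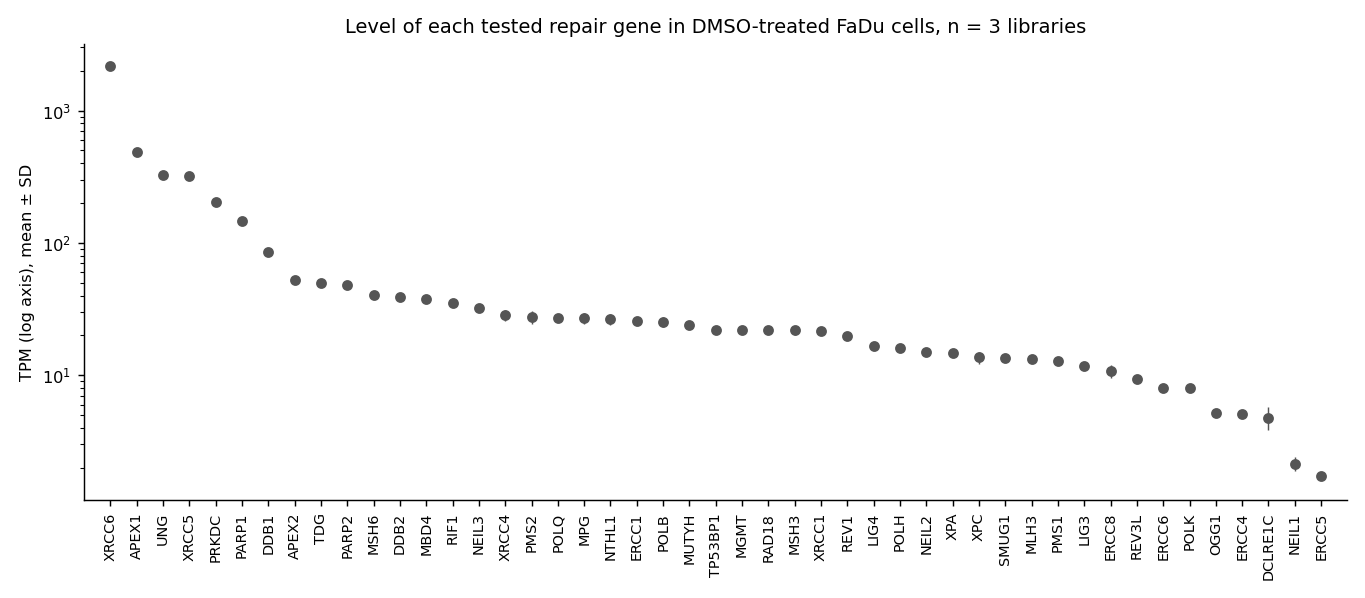
Mean level of each tested repair gene in the 3 DMSO libraries in TPM, on a log axis, with the SD as a bar, ordered from high to low. XRCC6 stands at the top with 2164 TPM and ERCC5 at the bottom with 1.73 TPM. The ERCC5 level is uncertain, as other gene models cover its span on the same strand.

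The first question was which repair transcripts differ in HNSCC cells when CDK7 is inhibited. Calls needed an adjusted p (edgeR's quasi-likelihood test, Benjamini-Hochberg over the 16065 genes) below 0.05 together with a log2 fold change of more than 0.5 either way. Values with ± and no unit are log2 fold changes ± SE. With YKL-5-124 against DMSO, 6 of the 47 tested genes were called lower (12.8%, against 9.93% of all genes tested) and 0 higher (against 11.9% of all genes tested). The genes that fell were DDB2, UNG, NEIL3, XRCC4, PRKDC and RIF1. With samuraciclib against DMSO, again 6 were called lower (12.8%, against 9.55% of all genes tested) and 0 higher (against 8.17%), namely DDB2, ERCC4, MUTYH, SMUG1, PARP2 and XRCC4. The share called lower was thus near the background for both compounds, while no member was called higher. DDB2 and XRCC4 were called with both compounds, and 10 members were called in at least 1 of these comparisons. Both comparisons use the same 3 DMSO libraries, and in bulk RNA fewer cells of a kind and less RNA per cell cannot be told apart.

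Most differences were smaller than the fold threshold. At adjusted p alone, 25 members were lower and 4 higher with YKL-5-124 against DMSO (25.2% and 24.1% of all genes tested). With samuraciclib 30 were lower and 2 higher (23.1% and 21.0% of all genes). The 4 were 2 without DMSO 3 or without YKL-5-124 3, and the 2 were 1 without DMSO 1, DMSO 2, samuraciclib 1 or samuraciclib 3. By unadjusted p below 0.05, 4 members were higher and 26 lower with YKL-5-124, and 5 higher and 30 lower with samuraciclib. The share of all genes at unadjusted p was not computed. DESeq2 with the fold threshold called 0 higher with either. The median log2 fold change of the members was -0.24 with YKL-5-124 (0.014 over all genes) and -0.26 with samuraciclib (0.0012 over all genes). The fold change was negative for 36 of the 47 tested members with YKL-5-124 (48.5% of all genes tested) and for 37 with samuraciclib (49.9%). The 95% interval of the fold change lay within 0.5 either way for 32 members with YKL-5-124 and for 31 with samuraciclib.

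**Figure D2:**
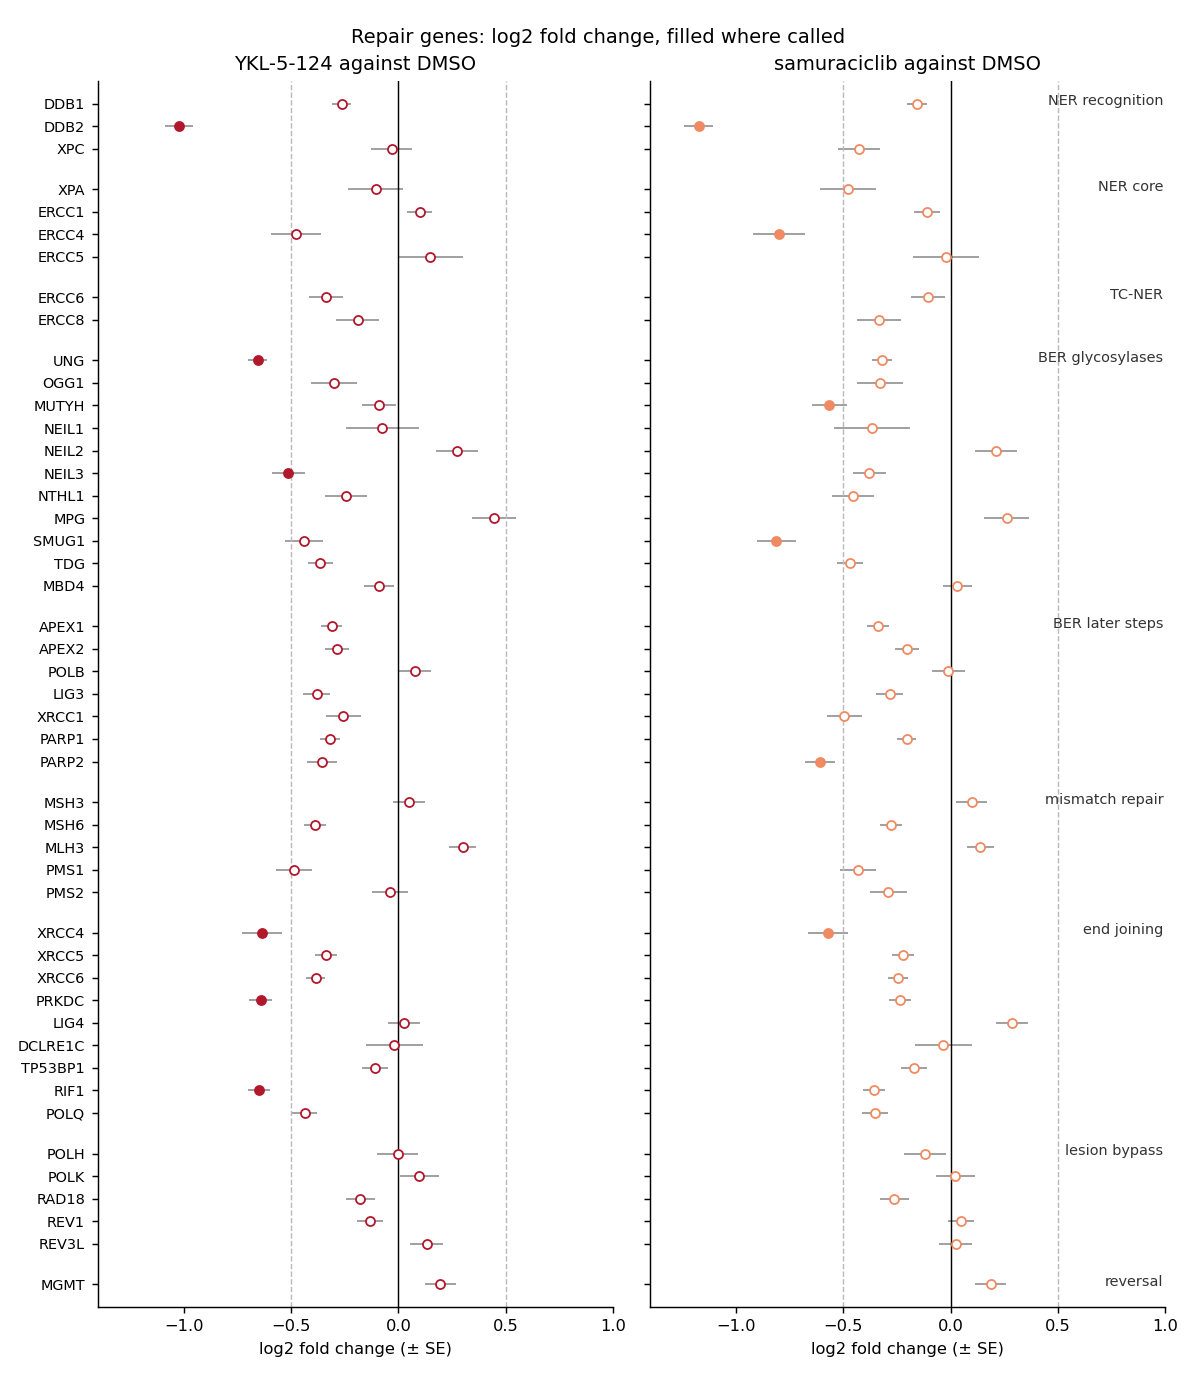
Log2 fold change ± SE of the 47 tested repair genes, grouped by role, with YKL-5-124 against DMSO (left panel) and samuraciclib against DMSO (right panel). Filled points were called, dashed lines mark 0.5 either way, and the lowest point in both panels is DDB2 at -1.02 and -1.17.

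Of the genes that find bulky lesions, DDB2 alone was called. It encodes the small subunit of the DDB complex, which binds ultraviolet photoproducts, and it is also known as a target of the transcription factor p53. DDB2 (ENSG00000134574, chromosome 11, 47214465 to 47239240, plus strand, GRCh38) had 26.0, 29.4 and 25.8 CPM with YKL-5-124, 24.6, 25.0 and 23.6 CPM with samuraciclib and 53.3, 57.0 and 54.8 CPM in DMSO. Every treated library lay far below every DMSO library, and no groups overlapped. The fall was 2.03-fold with YKL-5-124 (-1.02 ± 0.065, adjusted p = 5.45e-10) and 2.26-fold with samuraciclib (-1.17 ± 0.066, adjusted p = 2.79e-10). Its partner DDB1, which also serves as an adaptor of the CUL4 ubiquitin ligase, differed far less, with 287 ± 6.54 CPM with YKL-5-124, 309 ± 2.06 CPM with samuraciclib and 344 ± 10.4 CPM in DMSO (SD, n = 3 each; -0.26 ± 0.045 and -0.16 ± 0.045). XPC, the lesion sensor that recruits TFIIH, stood at -0.031 ± 0.10 with YKL-5-124 (adjusted p = 0.812) and -0.43 ± 0.10 with samuraciclib (adjusted p = 0.00174). Opposite-strand genes cover 63.2% of the XPC span, and the strand setting of the counting is not given in the sources used here. Genes on the opposite strand together cover at least 10% of the span of 18 members, XPC included, and genes on the same strand that of 4.

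DDB2 and XRCC4 were the members called with both compounds, so the bases upstream of their start sites are shown. They were taken from RefSeq (GRCh38.p14), where 43 of the 48 genes matched, with windows of 300 bases, 250 before and 50 after each start site. The windows were searched on both strands for CCAAT, the word bound by NF-Y, and for an E2F word (TTTCGCGC, TTTGGCGC, TTTCCCGC or TTTGCCGC), and no E2F word contains CCAAT. A match is a description of the letters and not of binding. CCAAT stood in 28 of 63 member windows (44.4%, against 34.6% of 35116 windows of all genes), and the E2F word in 8 of 63 (12.7%, against 3.31%). Windows of 1 gene can overlap, as those of PMS2 do, so a match can count more than once. By gene, CCAAT stood in 23 of 43 and the E2F word in 7 of 43. The DDB2 stretch, chr11:47214204-47214453 on the plus strand, holds 3 CCAAT words, in capitals. The window of a second DDB2 start site, at 47214974, holds neither word and is not printed. The XRCC4 stretch, chr5:83077297-83077497 on the plus strand, ends before the first base of the gene in the count table and holds none, and its window has 1 further on. A stretch before the second UNG start site, chr12:109097922-109098117 on the plus strand, is shown too. No other window of a called member holds the E2F word, and the stretch was chosen after the matches were seen. The called members PRKDC and SMUG1 had no window and were not searched. The UNG stretch, too, ends before annotated exonic bases. In it the capitals mark 3 CCAAT words and 1 E2F word.
DDB2: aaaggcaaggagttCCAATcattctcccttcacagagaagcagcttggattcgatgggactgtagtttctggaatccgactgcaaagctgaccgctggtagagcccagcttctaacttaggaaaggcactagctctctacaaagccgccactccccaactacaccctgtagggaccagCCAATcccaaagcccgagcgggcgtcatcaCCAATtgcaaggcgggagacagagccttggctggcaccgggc
XRCC4: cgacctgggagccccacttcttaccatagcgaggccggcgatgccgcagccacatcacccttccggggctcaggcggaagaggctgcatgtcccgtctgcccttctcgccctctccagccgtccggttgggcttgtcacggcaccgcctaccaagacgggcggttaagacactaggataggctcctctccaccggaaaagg
UNG: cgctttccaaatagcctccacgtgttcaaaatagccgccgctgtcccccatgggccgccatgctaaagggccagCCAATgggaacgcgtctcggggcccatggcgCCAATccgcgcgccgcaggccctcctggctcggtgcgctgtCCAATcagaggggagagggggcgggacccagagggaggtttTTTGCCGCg

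The core of nucleotide excision repair holds XPA, which verifies the lesion, and the nucleases ERCC1-ERCC4 (XPF) and ERCC5. ERCC4 (ENSG00000175595, chromosome 16, 13920157 to 13952345, plus strand) was called with samuraciclib only. It had 8.64, 9.68 and 8.56 CPM with YKL-5-124, 6.13, 8.61 and 6.78 CPM with samuraciclib and 12.8, 12.8 and 12.0 CPM in DMSO. Both treated groups lay below DMSO without overlap, and samuraciclib 2 was level with the lower YKL-5-124 libraries. The log2 fold change was -0.48 ± 0.12 with YKL-5-124 (adjusted p = 0.00250) and -0.80 ± 0.12 with samuraciclib (adjusted p = 3.14e-05). The value with YKL-5-124 was just inside the fold threshold and passed it without YKL-5-124 2 (-0.54), without DMSO 3 (-0.51) and in the 6 libraries with high RN7SL2 (-0.57). ERCC1, the obligate partner of ERCC4 in 1 nuclease, stood at 0.10 ± 0.060 with YKL-5-124 and -0.11 ± 0.061 with samuraciclib, neither past the adjusted p. XPA was at -0.11 ± 0.13 with YKL-5-124 (adjusted p = 0.511) and -0.48 ± 0.13 with samuraciclib (adjusted p = 0.00594). ERCC5, whose span is covered by the readthrough gene BIVM-ERCC5 with 0 counts, was at 0.15 ± 0.15 and -0.023 ± 0.15 with wide errors. BIVM covers 49.9% of the ERCC5 span on the same strand, with 1568 counts against 815 for ERCC5, whose counts are thus uncertain. Of the pair that couples repair to transcription, ERCC6 (CSB) was at -0.34 ± 0.080 with YKL-5-124 and -0.11 ± 0.080 with samuraciclib, and ERCC8 (CSA) at -0.19 ± 0.10 and -0.34 ± 0.10 in that order. The DNA helicases of TFIIH are not among the 48 genes.

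Of the 11 glycosylases, 2 were called lower with YKL-5-124, UNG and NEIL3, beside 9.93% of all genes tested. With samuraciclib 2 were called lower, SMUG1 and MUTYH, beside 9.55% of all genes tested. UNG (ENSG00000076248, chromosome 12, 109097574 to 109110992, plus strand), which removes uracil from DNA and acts at replication forks in its nuclear form, had 148, 155 and 159 CPM with YKL-5-124, 192, 190.3 and 201 CPM with samuraciclib and 243, 248 and 238 CPM in DMSO. The 3 groups were fully separate, with YKL-5-124 the lowest. It fell 1.57-fold with YKL-5-124 (-0.65 ± 0.045, adjusted p = 1.38e-09) and stood at -0.32 ± 0.045 with samuraciclib (adjusted p = 1.28e-05). SMUG1 (ENSG00000123415, chromosome 12, 54121277 to 54189008, minus strand), the other main uracil glycosylase, had the opposite order, with 18.8, 15.6 and 18.3 CPM with YKL-5-124, 14.2, 13.6 and 12.6 CPM with samuraciclib and 24.2, 22.6 and 24.3 CPM in DMSO. Here the samuraciclib libraries were the lowest, and again no groups overlapped. SMUG1 stood at -0.44 ± 0.088 with YKL-5-124 (adjusted p = 4.24e-04) and fell 1.76-fold with samuraciclib (-0.81 ± 0.090, adjusted p = 8.61e-07). Lowly counted noncoding genes cover 13.7% of its span on the same strand and 40.9% on the other.

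MUTYH (ENSG00000132781, chromosome 1, 45329163 to 45340470, minus strand), which removes adenine paired with oxidized guanine, had 23.9, 23.7 and 28.3 CPM with YKL-5-124, 17.9, 18.6 and 18.0 CPM with samuraciclib and 27.1, 27.5 and 26.3 CPM in DMSO. The samuraciclib libraries lay below all others, and YKL-5-124 and DMSO overlapped. It stood at -0.091 ± 0.078 with YKL-5-124 (adjusted p = 0.353) and fell 1.48-fold with samuraciclib (-0.57 ± 0.081, adjusted p = 1.63e-05). NEIL3 (ENSG00000109674, chromosome 4, 177309836 to 177362943, plus strand), a glycosylase of proliferating cells that also unhooks crosslinks, had 19.0, 19.9 and 19.3 CPM with YKL-5-124, 22.5, 21.9 and 19.4 CPM with samuraciclib and 26.8, 27.4 and 28.7 CPM in DMSO. Both treated groups lay below DMSO, and they overlapped each other. Its fall with YKL-5-124 was only just past the threshold (-0.51 ± 0.076, adjusted p = 2.15e-05) and was not called without DMSO 3 (-0.48) or, narrowly, without YKL-5-124 1 (-0.50). With samuraciclib it stood at -0.38 ± 0.076 (adjusted p = 4.93e-04).

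TDG (ENSG00000139372, chromosome 12, 103965804 to 103988874, plus strand), which acts on thymine mispaired with guanine and in DNA demethylation, was uncalled with both compounds though its adjusted p was small. It had 57.1, 57.2 and 51.9 CPM with YKL-5-124, 52.97, 53.3 and 48.3 CPM with samuraciclib and 67.9, 74.0 and 71.8 CPM in DMSO, with no overlap between DMSO and either compound, and stood at -0.36 ± 0.059 with YKL-5-124 (adjusted p = 5.72e-05) and -0.47 ± 0.060 with samuraciclib (adjusted p = 4.51e-06). MBD4, with a like substrate, was at -0.090 ± 0.070 and 0.031 ± 0.069. For oxidized bases, OGG1 was at -0.30 ± 0.11 with YKL-5-124 and -0.33 ± 0.11 with samuraciclib, NTHL1 at -0.24 ± 0.10 and -0.46 ± 0.10, and NEIL1 at -0.076 ± 0.17 and -0.37 ± 0.18. A minority went the other way. MPG, the alkyladenine glycosylase, had the largest positive value of the 47 genes with YKL-5-124 (0.45 ± 0.10, adjusted p = 0.00152), against 0.26 ± 0.10 with samuraciclib (adjusted p = 0.0508). It was called higher with YKL-5-124 without DMSO 3 (0.50) and in the 6 libraries with high RN7SL2 (0.55). Opposite-strand exons share 30.1% of the exonic bases of MPG, 29.0% of OGG1 and 30.5% of NEIL1 (GENCODE v44 models). NPRL3, opposite MPG, had 15710 counts against 2963. As the strand setting is not given, the counts of these genes are uncertain, as are those of other members. By the same measure LIG3 shares 30.5%, TP53BP1 28.8%, ERCC1 28.6%, XPC 24.6%, MSH6 24.2% and XRCC1 20.0%. MUTYH shares 31.6% of its exonic bases with same-strand exons of those models, though 0 same-strand genes of the count table overlap it. NEIL2, another glycosylase for oxidized bases, was at 0.27 ± 0.10 and 0.21 ± 0.10.

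**Figure D3:**
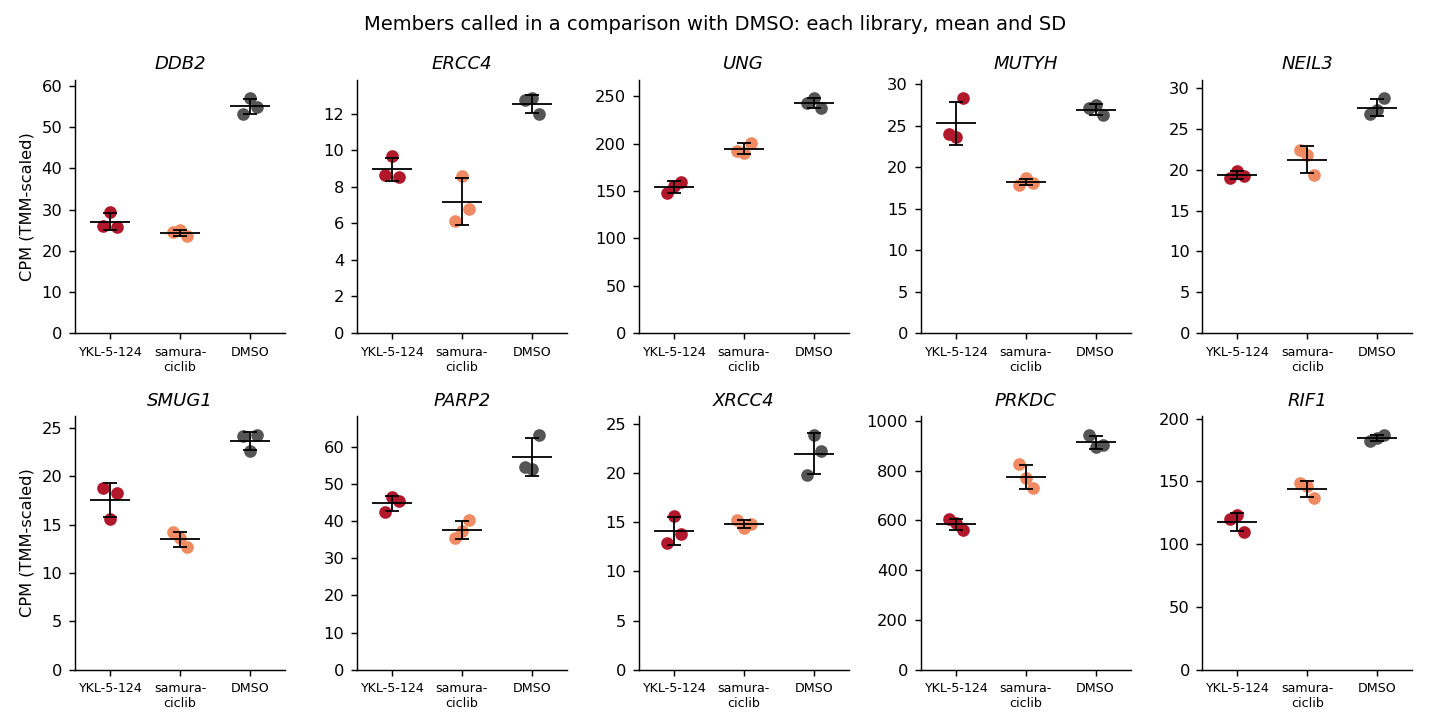
CPM of the 10 repair genes called in a comparison with DMSO, in each of the 9 libraries, with YKL-5-124, samuraciclib and DMSO from left to right, and the mean and SD as bars. DDB2 stands at 23.6 to 29.4 CPM in the 6 treated libraries and at 53.3 to 57.0 CPM in DMSO, and MUTYH shows an overlap of YKL-5-124 with DMSO.

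The later steps of base excision repair had small differences one by one, with 6 of 7 genes lower at adjusted p alone with YKL-5-124 (25.2% of all genes) and 6 of 7 with samuraciclib (23.1% of all genes). PARP2 (ENSG00000129484, chromosome 14, 20343582 to 20357905, plus strand), the lesser of the 2 polymerases that mark single-strand breaks with poly(ADP-ribose), was the only one called. It had 42.6, 46.4 and 45.5 CPM with YKL-5-124, 35.5, 37.3 and 40.2 CPM with samuraciclib and 54.5, 54.1 and 63.1 CPM in DMSO. The groups did not overlap, and samuraciclib was the lowest. PARP2 stood at -0.36 ± 0.069 with YKL-5-124 (adjusted p = 3.08e-04) and fell 1.53-fold with samuraciclib (-0.61 ± 0.070, adjusted p = 1.30e-06). PARP1 (ENSG00000143799, chromosome 1, 226360691 to 226408079, minus strand) had the reverse order, with 246, 251 and 235 CPM with YKL-5-124, 271, 263 and 258 CPM with samuraciclib and 296, 312 and 305 CPM in DMSO. The groups were again separate, at -0.32 ± 0.046 with YKL-5-124 (adjusted p = 1.40e-05) and -0.21 ± 0.046 with samuraciclib (adjusted p = 0.00126). The scaffold XRCC1 was at -0.26 ± 0.081 with YKL-5-124 and -0.50 ± 0.082 with samuraciclib, and its ligase partner LIG3 at -0.38 ± 0.063 and -0.28 ± 0.063. APEX1, which cuts at the abasic site, was at -0.31 ± 0.051 and -0.34 ± 0.051, and its paralog APEX2 at -0.29 ± 0.056 and -0.20 ± 0.056. POLB, the gap-filling polymerase, was at 0.075 ± 0.076 and -0.012 ± 0.077, with adjusted p of 0.435 and 0.918.

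None of the 5 mismatch repair genes was called. MSH6 (ENSG00000116062, chromosome 2, 47695530 to 47810101, plus strand), which recognizes base mismatches and short loops, had 95.9, 104 and 94.0 CPM with YKL-5-124, 102, 110.2 and 106 CPM with samuraciclib and 129, 126 and 131 CPM in DMSO. Both treated groups lay below DMSO, at -0.39 ± 0.051 with YKL-5-124 (adjusted p = 4.78e-06) and -0.28 ± 0.051 with samuraciclib (adjusted p = 1.96e-04). MSH3, which recognizes longer loops, stood at 0.050 ± 0.074 and 0.10 ± 0.074, with adjusted p of 0.599 and 0.302. Among the MutL subunits, PMS1 was at -0.49 ± 0.084 with YKL-5-124 and -0.43 ± 0.084 with samuraciclib. PMS2, the endonuclease subunit, was at -0.040 ± 0.085 and -0.29 ± 0.086, and its counts are uncertain because near-identical pseudogenes can take part of its reads. MLH3 was higher at adjusted p alone with YKL-5-124 (0.30 ± 0.062, adjusted p = 6.15e-04), against 0.14 ± 0.063 with samuraciclib (adjusted p = 0.0840).

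Of 9 end-joining genes tested, 3 were called lower with YKL-5-124 and 1 with samuraciclib, beside 9.93% and 9.55% of all genes tested. PRKDC (ENSG00000253729, chromosome 8, 47773108 to 47960183, minus strand) had 604, 591 and 561 CPM with YKL-5-124, 827, 771 and 731 CPM with samuraciclib and 943, 896 and 902 CPM in DMSO. The 3 groups were separate, and the YKL-5-124 libraries were the lowest. It fell 1.56-fold with YKL-5-124 (-0.64 ± 0.052, adjusted p = 1.25e-08) and stood at -0.24 ± 0.052 with samuraciclib (adjusted p = 0.00114). The Ku subunits, which recruit this kinase to a broken end, were lower without reaching the fold threshold. XRCC6 (ENSG00000196419, chromosome 22, 41621119 to 41664048, plus strand) had 1513, 1639.7 and 1579 CPM with YKL-5-124, 1714, 1774 and 1726 CPM with samuraciclib and 2009.9, 2105 and 2066 CPM in DMSO, at -0.39 ± 0.045 with YKL-5-124 (adjusted p = 1.28e-06) and -0.25 ± 0.045 with samuraciclib (adjusted p = 2.17e-04). XRCC5 (ENSG00000079246, chromosome 2, 216107464 to 216206303, plus strand) had 401, 425 and 389.9 CPM with YKL-5-124, 443, 455 and 418 CPM with samuraciclib and 506, 528 and 500.5 CPM in DMSO, at -0.34 ± 0.050 with YKL-5-124 (adjusted p = 2.15e-05) and -0.22 ± 0.050 with samuraciclib (adjusted p = 0.00144). In both genes the treated libraries all lay below DMSO.

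XRCC4 (ENSG00000152422, chromosome 5, 83077498 to 83353787, plus strand), the scaffold of the ligation step, had 12.9, 15.7 and 13.8 CPM with YKL-5-124, 15.2, 14.4 and 14.8 CPM with samuraciclib and 19.8, 23.9 and 22.3 CPM in DMSO. The treated groups lay below DMSO and overlapped each other. It fell 1.55-fold with YKL-5-124 (-0.64 ± 0.094, adjusted p = 2.00e-05) and 1.49-fold with samuraciclib (-0.57 ± 0.094, adjusted p = 7.36e-05). LIG4, the ligase that XRCC4 stabilizes, did not share this fall, with 21.7 ± 0.529 CPM with YKL-5-124, 26.0 ± 0.920 CPM with samuraciclib and 21.3 ± 1.17 CPM in DMSO (SD, n = 3 each). It stood at 0.027 ± 0.074 with YKL-5-124 (adjusted p = 0.786) and was higher at adjusted p alone with samuraciclib (0.29 ± 0.073, adjusted p = 0.00370). DCLRE1C, the Artemis nuclease, was at -0.019 ± 0.13 and -0.034 ± 0.13, with adjusted p of 0.920 and 0.857.

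RIF1 (ENSG00000080345, chromosome 2, 151409883 to 151508013, plus strand), which limits end resection together with TP53BP1 and also sets replication timing, had 119.9, 123 and 109.5 CPM with YKL-5-124, 149, 147 and 137 CPM with samuraciclib and 182, 185 and 187 CPM in DMSO. The 3 groups were separate, with YKL-5-124 the lowest. It fell 1.57-fold with YKL-5-124 (-0.65 ± 0.051, adjusted p = 7.12e-09) and stood at -0.36 ± 0.050 with samuraciclib (adjusted p = 1.35e-05). TP53BP1 itself was at -0.11 ± 0.060 with YKL-5-124 (adjusted p = 0.147) and -0.17 ± 0.060 with samuraciclib (adjusted p = 0.0289). POLQ (ENSG00000051341, chromosome 3, 121431427 to 121546641, minus strand), the polymerase of microhomology-mediated joining, had 59.5, 53.5 and 50.9 CPM with YKL-5-124, 57.3, 59.8 and 56.4 CPM with samuraciclib and 74.8, 75.2 and 71.8 CPM in DMSO. All treated libraries lay below DMSO, at -0.44 ± 0.059 with YKL-5-124 (adjusted p = 7.17e-06) and -0.35 ± 0.059 with samuraciclib (adjusted p = 8.63e-05).

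None of the bypass genes was called, and neither was MGMT. RAD18, the ubiquitin ligase that modifies PCNA at a stalled fork, was lower at adjusted p alone, at -0.18 ± 0.068 with YKL-5-124 and -0.26 ± 0.068 with samuraciclib. POLH was at -0.0040 ± 0.10 and -0.12 ± 0.10, POLK at 0.10 ± 0.090 and 0.022 ± 0.091, REV1 at -0.13 ± 0.060 and 0.047 ± 0.060, and REV3L, the catalytic subunit of polymerase zeta, at 0.13 ± 0.078 and 0.023 ± 0.078, none past the adjusted p. MGMT, which takes methyl groups off guanine, was higher at adjusted p alone with YKL-5-124 (0.19 ± 0.072, adjusted p = 0.0319) and with samuraciclib (0.19 ± 0.072, adjusted p = 0.0436).

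The second question was where the 2 inhibitors, at the same dose and time, differ from each other. This is 1 pair, and its p-values were adjusted over all genes tested. With YKL-5-124 against samuraciclib, 0 members were called higher (4.46% of all genes tested) and 0 lower (2.46%). At unadjusted p below 0.05, 12 were higher and 11 lower, with no share of all genes computed at that level. DESeq2 called 0 higher and 0 lower. At adjusted p alone, 8 were higher and 7 lower (11.8% and 13.2% of all genes tested). The median of the members was 0.060, against 0.0079 over all genes.

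The 7 genes lower with YKL-5-124 than with samuraciclib held 4 of the 9 end-joining genes and no gene of global genome repair. Of all genes tested, 13.2% were lower at adjusted p alone. PRKDC had the largest difference, -0.41 ± 0.052 (95% interval -0.52 to -0.30), followed by UNG at -0.33 ± 0.045 (-0.43 to -0.24) and RIF1 at -0.29 ± 0.051 (-0.40 to -0.19). LIG4 was at -0.26 ± 0.073, ERCC6 at -0.23 ± 0.081, REV1 at -0.18 ± 0.060 and XRCC6 at -0.14 ± 0.045. The adjusted p was 2.61e-05 for PRKDC, 4.29e-05 for UNG and 4.55e-04 for RIF1.

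The 8 genes higher with YKL-5-124 than with samuraciclib came from excision and mismatch repair, with no end-joining gene among them. MUTYH had the largest difference, 0.47 ± 0.081 (95% interval 0.30 to 0.64, adjusted p = 3.84e-04), and it was called without YKL-5-124 1 (0.51), without YKL-5-124 2 (0.52) and in the 6 libraries with high RN7SL2 (0.54). XPC was at 0.40 ± 0.10 (0.19 to 0.60, adjusted p = 0.00696), SMUG1 at 0.37 ± 0.092 (0.18 to 0.57, adjusted p = 0.00628) and XPA at 0.37 ± 0.13 (0.10 to 0.65, adjusted p = 0.0448). PARP2 was at 0.25 ± 0.071, PMS2 at 0.25 ± 0.086, XRCC1 at 0.24 ± 0.083 and ERCC1 at 0.21 ± 0.061. In 6 libraries, without the 3 low in RN7SL2, 5 members were higher and 3 lower at adjusted p alone. Single libraries also moved these counts, to 4 higher and 4 lower without samuraciclib 1, and 5 higher and 3 lower without samuraciclib 2. Without DMSO 2, 5 were higher, and without YKL-5-124 1 or YKL-5-124 3, 4 were lower.

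For DDB2 and XRCC4, the genes called lower with both compounds, the difference between the compounds was small. It was 0.15 ± 0.069 for DDB2 (95% interval 0.0090 to 0.30, adjusted p = 0.114) and -0.063 ± 0.10 for XRCC4 (-0.27 to 0.14, adjusted p = 0.684). ERCC4, called with samuraciclib only, differed by 0.32 ± 0.12 (0.061 to 0.58, adjusted p = 0.0664), and NEIL3, called with YKL-5-124 only, by -0.13 ± 0.078 (-0.30 to 0.030, adjusted p = 0.231), so that a difference between the compounds was not shown for either. The interval lay within 0.5 either way for 40 of the 47 genes. The intervals extended to either side of the value by a median of 0.15 and by 0.37 at most.

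**Figure D4:**
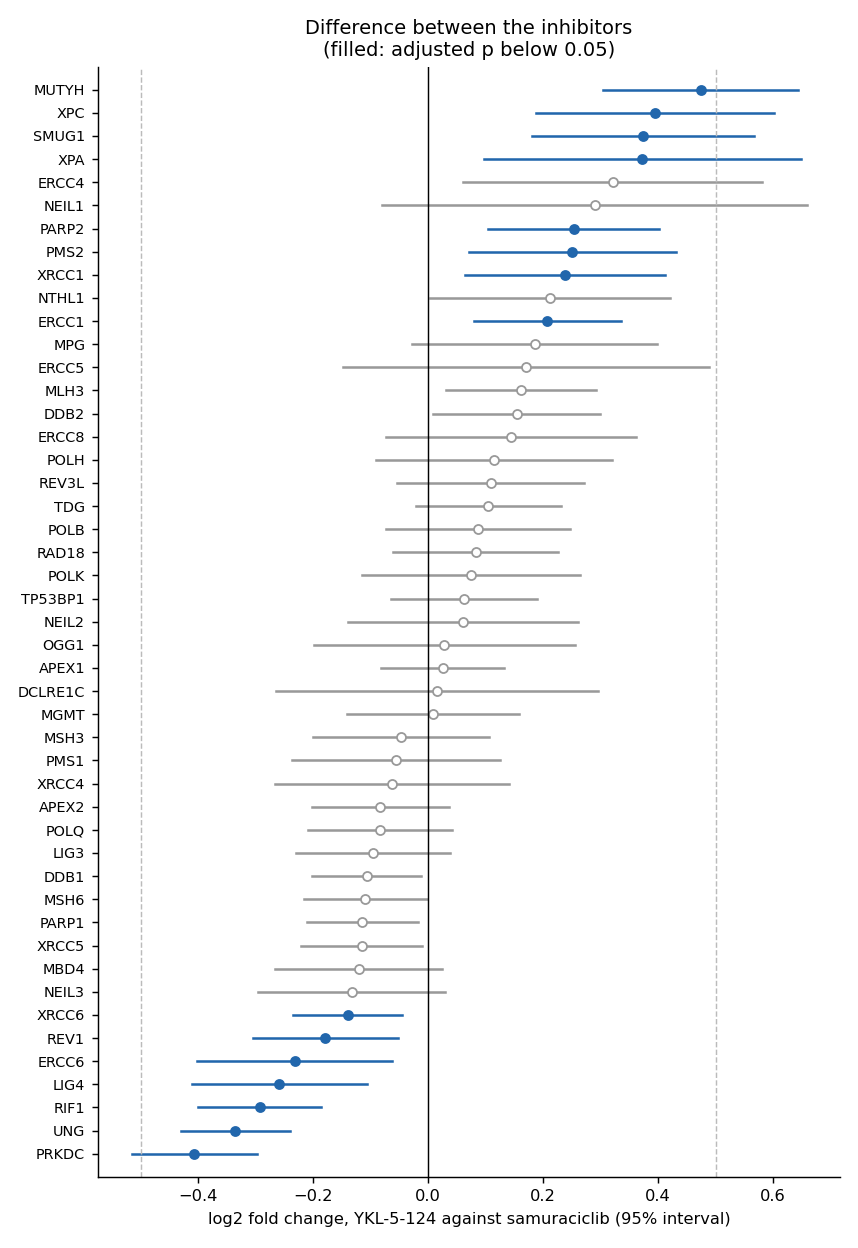
Log2 fold change of the 47 tested repair genes with YKL-5-124 against samuraciclib, ordered by value, with 95% intervals. The 15 filled points passed the adjusted p alone, from PRKDC at -0.41 to MUTYH at 0.47, and dashed lines mark 0.5 either way.

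Other genes were read beside the members. Of 33 further repair factors, 1 was called higher and 2 lower with YKL-5-124 against DMSO, and 2 higher and 5 lower with samuraciclib (medians -0.075 and -0.19). LIG1, the replicative ligase, fell with both (-0.63 ± 0.057 and -0.64 ± 0.057), as did HLTF, a translocase of stalled forks (-0.61 ± 0.055 and -0.52 ± 0.055). APLF, an accessory factor of end joining, rose with both (1.68 ± 0.19 and 1.48 ± 0.20) at 5.05 CPM with YKL-5-124, 4.38 CPM with samuraciclib and 1.60 CPM in DMSO.

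Genes of DNA replication had larger differences by their median than the repair genes. Of 15 S phase markers, 10 were called lower and 0 higher with each compound (medians -0.65 with YKL-5-124 and -0.53 with samuraciclib). The share of all genes tested called lower was 9.93% with YKL-5-124 and 9.55% with samuraciclib. RRM2, a subunit of ribonucleotide reductase, was at -1.41 and -1.17, and MCM2, of the replicative helicase, at -0.83 and -0.72. Their summed level was 2013 to 2066 CPM with YKL-5-124, 2065 to 2139 CPM with samuraciclib and 3126 to 3260 CPM in DMSO. Of 10 mitosis markers, 3 were called lower with YKL-5-124 and 5 with samuraciclib, and 0 higher, with TOP2A, the DNA topoisomerase, at -1.29 and -0.87. The part of the S phase and mitosis genes in the lower repair transcripts was not tested. Among 15 targets of p53, 5 were called higher with YKL-5-124 and 2 with samuraciclib, and 0 lower (medians 0.17 and 0.10). Among all genes tested, 11.9% and 8.17% were called higher in that order. DDB2, also known as a p53 target, is not among the 15 and was called lower with YKL-5-124 (-1.02) and samuraciclib (-1.17). Of the 15, BAX (-0.15) and MDM2 (-0.22) were lower at adjusted p alone with YKL-5-124. With samuraciclib these were BAX (-0.32) and FDXR (-0.29). These genes were named after their values were seen. CDKN1A, the p21 inhibitor, was called higher with YKL-5-124 (0.62) and samuraciclib (0.61), and so was ZMAT3, an RNA-binding protein (0.84 and 0.74).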

How the data were processed

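The authors deposited 1 table of counts, integers that give the read pairs assigned to a gene, not normalized. Per the labels and the study's methods, poly(A)-selected RNA was sequenced in pairs, aligned to GRCh38 with HISAT2 and counted with featureCounts 2.0.6 on a GENCODE annotation. Its release and the strand setting are not given in the sources used here.

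Each column was matched to its sample by name, and groups follow the labels. The 48 genes and all lists were chosen with earlier results of these data known, so no list was tested. Genes were filtered with filterByExpr (edgeR 4.0.16), and 9 libraries were fitted together, without covariates, after TMM scaling. Tests were edgeR's two-sided quasi-likelihood F-tests, with Benjamini-Hochberg adjustment over 16065 genes, called at adjusted p below 0.05 and log2 fold change beyond 0.5. The SE is the size of the fold change over the square root of F. CPM use TMM-scaled totals, and TPM use the deposited gene length without TMM. Depth was 18096180 to 28018126 counts, and the biological coefficient of variation was 0.0631.

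Values per library are given for members called in any comparison and for 6 uncalled members with the smallest adjusted p against DMSO. From other lists, up to 4 genes with the smallest adjusted p may be named. Alternatives covered thresholds, glmTreat, scaling, filters, the groups in the fit, DESeq2 1.42.0, the replicate number as a block, 6 libraries without low RN7SL2, and each library left out in turn. Counts at adjusted p alone were added after the data were seen. The fit was tested on simulated data. Deviations of same-numbered libraries from their group means had r of -0.056 to 0.17 over 9 pairs, so the numbers were not taken to pair samples. The 3 libraries low in RN7SL2 deviated together (r 0.15 for DMSO 3 with samuraciclib 2 and with YKL-5-124 2, and 0.17 for samuraciclib 2 with YKL-5-124 2). The software was R 4.3.3 and Python 3.11.15 (pandas 2.3.3, matplotlib 3.10.9). Promoter sequences are RefSeq's (GRCh38.p14). Some genes are not reported here.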

Additional observations from a re-analysis of the deposited data

How the results depend on the processing

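Of 2820 recomputed fold changes of single members, 2725 kept their side of the threshold. Another 86 came to pass it (64 of them for lack of a fold threshold), 9 fell short of it and 0 reversed a called direction. In 68 of the 2725 an uncalled value changed sign. The 9 belong to 4 genes. By glmTreat, which tests for a change beyond the fold threshold, NEIL3 and XRCC4 with YKL-5-124 and MUTYH, PARP2 and XRCC4 with samuraciclib were not called, which left 4 lower with YKL-5-124 and 3 lower with samuraciclib. NEIL3 with YKL-5-124 was also lost with library size alone (-0.38) and when genes needed a mean count of 50 (-0.47). The same 6 members were called lower with samuraciclib when any 1 library was left out, with totals of 6 to 9, and the total with YKL-5-124 was 6 to 7. Without a fold threshold, 4 members were higher and 25 lower with YKL-5-124, 2 higher and 30 lower with samuraciclib, and 8 higher and 7 lower with YKL-5-124 against samuraciclib.

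Library size alone, without TMM, moved the median of all genes to 0.14 with YKL-5-124, 0.060 with samuraciclib and 0.077 between the compounds, and that of the members to -0.12, -0.20 and 0.13 in that order. It gave 1 member higher with YKL-5-124 against DMSO (MPG) and 1 against samuraciclib (MUTYH). The 6 libraries without low RN7SL2 gave 1 and 1 likewise, and leaving out 1 library 0 to 1 in either comparison. A mean count of at least 50 gave a median of -0.21 with YKL-5-124, and single libraries left out gave -0.26 to -0.18 with YKL-5-124, -0.26 to -0.24 with samuraciclib and 0.0060 to 0.080 between the compounds.

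At adjusted p alone, library size alone gave 8 higher with YKL-5-124, 5 higher with samuraciclib and 3 lower between the compounds. The 6 libraries gave 2 higher with YKL-5-124, and 5 higher and 3 lower between the compounds. DESeq2 gave 2 higher with YKL-5-124, 1 with samuraciclib and 5 between the compounds. With samuraciclib, 1 was higher with no filter on low counts and 4 at a minimum mean count of 50. Leaving out 1 library gave 2 to 4 higher with YKL-5-124, 1 to 3 higher with samuraciclib, and 4 to 7 higher and 3 to 7 lower between the compounds. The replicate block gave 6 lower with YKL-5-124 and 6 with samuraciclib and changed no call of a member, though at adjusted p alone 3 were higher with samuraciclib and 6 lower between the compounds. Precision was lowest for the 2 genes with under 100 counts in some library, and NHEJ1, with 9 counts, was not tested. The cause of these shifts was not tested.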
